A study of Mus musculus with 17 samples.

Results

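The cell cycle and DNA replication genes followed here are 50 mouse genes in 3 roles: 6 G1 cyclins and cyclin-dependent kinases, 21 genes of S phase and DNA synthesis, and 23 genes of G2 and mitosis. Each gene was read from 1 probe set, the one with the highest mean over all arrays among those to which the platform annotation gives that gene alone. Of the 50 genes, 47 had such a probe set, and 45 of them (5 G1, 19 S phase and 21 mitosis genes) were bright enough to be tested, among 7063 named genes and 9871 probe sets tested in all. Ccnd2 and Mcm6 were too dim, and Tyms, Ccnb1 and Bub1b were not analysed here. Expression was measured in bone marrow-derived macrophages from irradiated mice whose marrow had been rebuilt with fetal liver cells. The fetal liver donors were SOCS3+/+ embryos (WT) or SOCS3-/- embryos (KO), so all groups, the WT included, are macrophages of transplanted haematopoietic origin, and any remaining host cells would have the host's own genotype. SOCS3, the suppressor of cytokine signalling 3, is the feedback inhibitor that binds the IL-6 receptor subunit gp130. Cells were left unstimulated or received IL-6 at 10 ng/ml for 100 min or 400 min. The 17 arrays are 2 of WT cells without IL-6 and 3 for each remaining genotype and time. The labels number the replicates 1 to 3 without saying whether they are separate mice, cultures or hybridisation rounds, so each p-value reflects the spread from sample to sample only, and that spread may be technical. Unstimulated WT cells had no replicate 3.

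A cell that commits to division passes a restriction point at which cyclin D and cyclin E kinases release E2F transcription factors from the retinoblastoma protein. E2F factors then drive the genes of S phase, which license and fire origins (Cdc6, the Mcm helicase, Cdc45), supply deoxynucleotides (Rrm1, Rrm2, Tk1) and copy DNA (the Pola and Pold polymerase subunits, primase, Pcna, Lig1). Genes of G2 and mitosis follow later under other promoter elements and build, drive and check the spindle. Bone marrow-derived macrophages divide in response to the growth factor CSF-1 while they differentiate, so these transcripts are present in such cultures, and the level in a culture reports both how many cells are cycling and how much RNA each holds. In RNA from bulk cells, fewer cycling cells and less RNA per cycling cell cannot be told apart.

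Values below are normalized intensities on a linear scale, from 1-colour arrays; differences are on the log2 scale with the SE of the fit, and p-values are adjusted over all probe sets tested. Levels of different genes are not compared, since probe sets differ in brightness. Socs3 itself was read first as a check of the labels. Its deposited intensity on 1 probe set was 1911 or more on the 5 WT arrays of IL-6-treated replicates 1 and 2 and WT 400 min replicate 3, 429.5 on WT 100 min replicate 3, and at most 160.2 on 8 of the 9 KO arrays; unstimulated WT cells read 110.7 and 72.9. The array labelled KO 400 min replicate 3 read 883.7, against 45.2 and 77.4 on the other KO 400 min arrays, so its Socs3 level goes against its label. It is called the array labelled KO 400 min replicate 3 below, and values without it are given beside the main KO results at 400 min. Il4ra, the interleukin-4 receptor alpha chain, was read as a check of the stimulus and rose in both genotypes at 400 min, by 3.77 ± 0.28 on the log2 scale in WT (SE; limma, adjusted p = 0.000111) and by 4.35 ± 0.25 in KO (adjusted p = 2.21e-06). On its brighter probe set, the deposited Il4ra intensity was 21143.7 on the array labelled KO 400 min replicate 3. The other KO 400 min arrays read 24264.7 and 24604.6, and the WT 400 min arrays 12044.6, 11769.4 and 9626.1. In Il4ra that array thus lay nearer to the KO than to the WT arrays, and its label was not tested further. At 100 min, the brighter Il4ra probe set read 4106 on WT replicate 3, against 8256.5 and 8249.2 on the other WT arrays. In KO it read 7271.8 on replicate 3, against 16683.7 and 15062.7. A second Socs3 probe set read 319.7 on KO 100 min replicate 3, against 148.5 and 109.8 on the other KO 100 min arrays. It read 784.3 on the array labelled KO 400 min replicate 3. The replicate 3 arrays of 100 min thus also stood apart in these checks, and the reason was not tested. Macrophage markers were bright on all arrays: the summed normalized intensity of 12 tested markers, of 14 listed, lay between 97729 and 132227. The defining T cell genes Cd3e, Cd3d and Cd3g were too dim to test, as was Kit among the 10 myeloid precursor markers, of which 6 were tested. Other listed markers were bright enough to test: 3 of T and NK cells, 7 of B cells, 7 erythroid, 8 neutrophil, 8 fibroblast and 3 mast cell markers. The purity of the cultures was not tested.

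Because transcription of these genes is tied to promoter elements, the 250 bases before the annotated start are shown for the S phase and mitosis members with the highest difference between replicate 3 and the other replicates, the pattern that moved most members. Sequences are from RefSeq on GRCm38.p6, 5′ to 3′ on the gene's strand, and the probe sets themselves carry no genome coordinates. Capitals mark letters matching an E2F element (TTCCCGC or TTGGCGC or TTCGCGC or TTGCCGC), a cell cycle homology region or CHR (TTTGAA or TTCGAA) or a CCAAT box (CCAAT), each searched on both strands. Kif20a, which would have come before Cdk1, is named only.
Rrm2 (chr12:24708004-24708253, plus strand): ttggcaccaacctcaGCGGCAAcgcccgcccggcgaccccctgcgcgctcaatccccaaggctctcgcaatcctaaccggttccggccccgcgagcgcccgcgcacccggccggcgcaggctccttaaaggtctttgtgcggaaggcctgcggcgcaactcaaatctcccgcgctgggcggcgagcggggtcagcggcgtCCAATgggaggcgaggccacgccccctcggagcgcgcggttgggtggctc
Pold2 (chr11:5878257-5878506, minus strand): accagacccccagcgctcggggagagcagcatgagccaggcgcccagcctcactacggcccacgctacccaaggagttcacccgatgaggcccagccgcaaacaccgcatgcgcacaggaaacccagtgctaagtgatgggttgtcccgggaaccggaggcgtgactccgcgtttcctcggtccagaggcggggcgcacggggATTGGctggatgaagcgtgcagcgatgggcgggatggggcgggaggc
Tk1 (chr11:117826015-117826264, minus strand): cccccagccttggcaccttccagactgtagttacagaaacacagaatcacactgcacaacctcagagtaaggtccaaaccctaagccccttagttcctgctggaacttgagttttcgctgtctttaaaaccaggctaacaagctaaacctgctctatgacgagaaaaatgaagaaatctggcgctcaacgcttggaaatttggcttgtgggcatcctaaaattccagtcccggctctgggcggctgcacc
Mad2l1 (chr6:66534971-66535220, plus strand): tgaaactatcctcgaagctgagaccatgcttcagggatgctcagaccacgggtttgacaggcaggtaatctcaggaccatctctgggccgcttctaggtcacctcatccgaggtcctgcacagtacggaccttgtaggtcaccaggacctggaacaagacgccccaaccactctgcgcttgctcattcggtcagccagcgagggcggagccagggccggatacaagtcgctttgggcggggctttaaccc
Hmgb2 (chr8:57511593-57511842, plus strand): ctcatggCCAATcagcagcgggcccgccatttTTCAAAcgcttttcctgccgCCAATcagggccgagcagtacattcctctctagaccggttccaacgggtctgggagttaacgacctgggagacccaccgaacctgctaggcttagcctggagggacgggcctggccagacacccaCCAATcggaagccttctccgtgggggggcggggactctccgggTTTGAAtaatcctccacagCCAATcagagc
Cdk1 (chr10:69352913-69353162, minus strand): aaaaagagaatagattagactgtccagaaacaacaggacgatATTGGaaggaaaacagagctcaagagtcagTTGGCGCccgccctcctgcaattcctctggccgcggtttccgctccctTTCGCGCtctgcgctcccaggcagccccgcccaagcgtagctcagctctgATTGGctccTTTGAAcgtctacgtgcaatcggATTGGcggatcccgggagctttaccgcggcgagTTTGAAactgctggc
The Cdk1 window held 2 E2F elements, 2 CHR elements and 3 CCAAT boxes. The Hmgb2 window held 2 CHR elements and 4 CCAAT boxes and no E2F match, whereas the Rrm2 window held 1 E2F element and 1 CCAAT box. The Tk1 and Mad2l1 windows held none of these letters. Among members with an entry in the table, an E2F match stood in 8 of 19 S phase windows (42.1%) and 3 of 19 mitosis windows (15.8%), against 7.97% of 27025 promoter windows. A CHR match stood in 3 of 19 S phase windows (15.8%) and 10 of 19 mitosis windows (52.6%), against 17.4% of all. A CCAAT match stood in 12 S phase windows (63.2%) and 17 mitosis windows (89.5%), against 34.5% of all. These are matches of letters, not measured binding.

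More members differed between replicate numbers than in any comparison of treatments or genotypes. On the 5 arrays of replicate 3, 22 of the 45 tested members were higher than on replicates 1 and 2 at an adjusted p under 0.05 (limma, group means and a replicate 3 term over all 17 arrays), and 0 were lower. A gene past this threshold is called below. They were 2 of 5 G1 genes, 9 of 19 S phase genes and 11 of 21 mitosis genes. Over all probe sets, 3.69% were called higher and 3.58% lower. Counting arrays, 8 members (3 S phase and 5 mitosis genes) had all 5 arrays of replicate 3 above the other 12, against 1.04% of probe sets. All 45 fitted differences were above 0, with medians of 0.85 for G1, 0.87 for S phase and 0.57 for mitosis genes on the log2 scale, against -0.02 over all probe sets. The replicate 3 term took a median of 36.9% of the variance of S phase members and 44.6% of that of mitosis members, against 6.97% over all probe sets. Without the KO unstimulated replicate 3 array, or without the KO 100 min one, the count fell to 13, and it was 21 when the array labelled KO 400 min replicate 3 was left out.

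**Figure D1:**
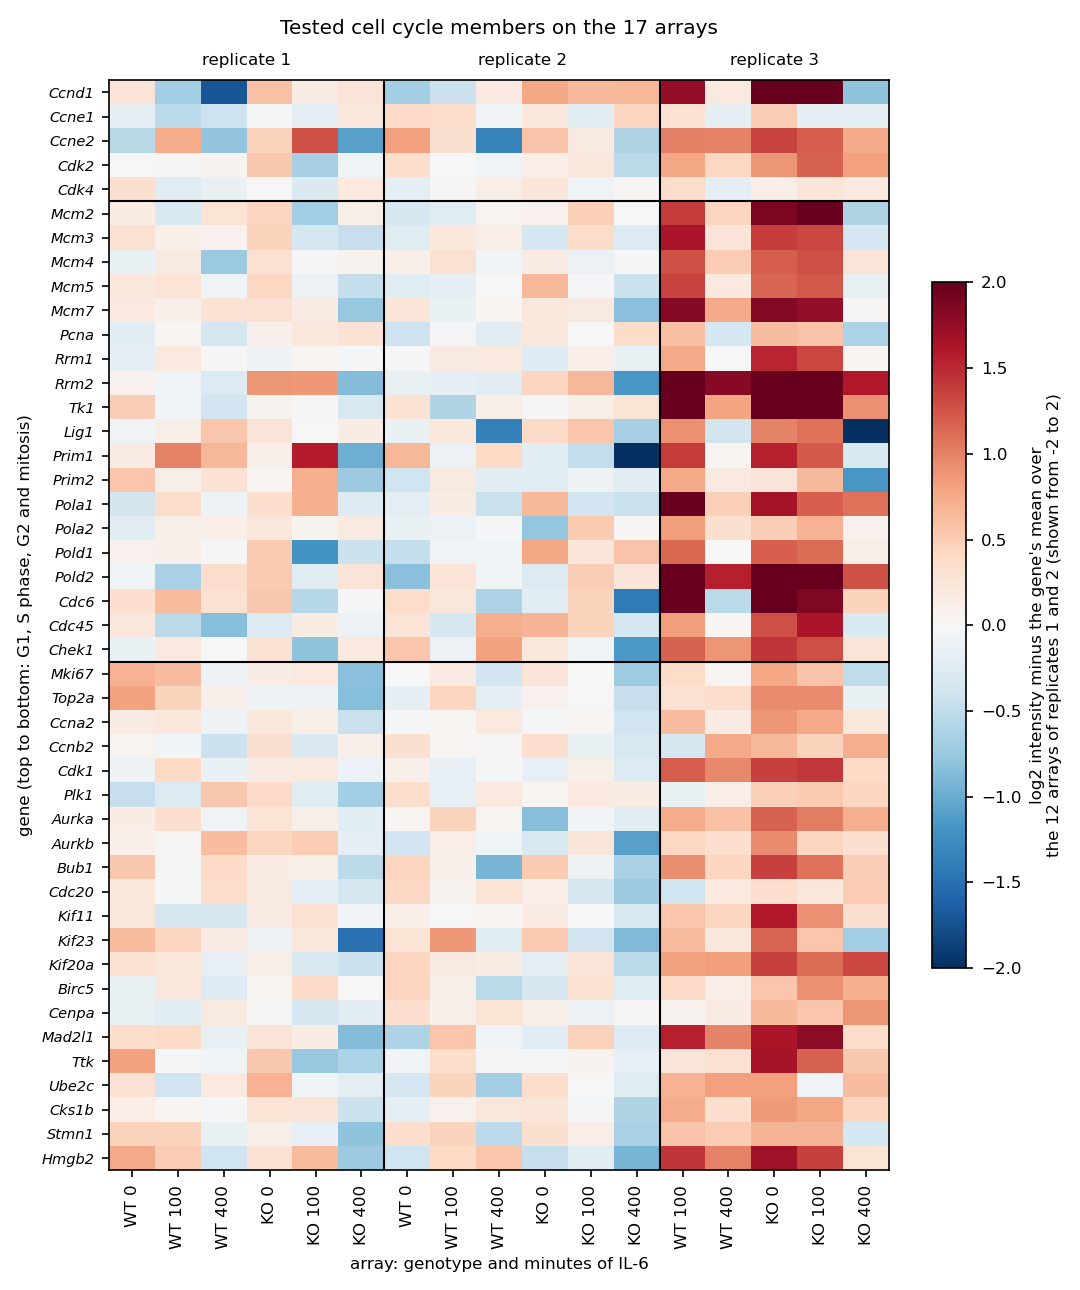
Each row is 1 of the 45 tested members and each column 1 of the 17 arrays, ordered by replicate number. Colour is the log2 normalized intensity minus the gene's mean over the 12 arrays of replicates 1 and 2, shown from -2 to 2. The S phase block is reddest on 3 replicate 3 arrays, WT 100 min, KO unstimulated and KO 100 min, with role medians of 1.35, 1.44 and 1.30, and paler on the replicate 3 arrays labelled WT 400 min and KO 400 min, with 0.25 and 0.03.

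Rrm2, Pold2 and Tk1 had the highest fitted differences of the S phase genes, while Rrm1 and Pold1, the large subunits of the same 2 enzymes as Rrm2 and Pold2, were not called (0.71 ± 0.22, adjusted p = 0.0693, and 0.68 ± 0.29, adjusted p = 0.178). Rrm2, the regulated subunit of ribonucleotide reductase, had a normalized intensity of 161 to 663, median 333, on the 12 arrays of replicates 1 and 2. On replicate 3 it read 3265 in WT at 100 min, 1272 in WT at 400 min, 3711 in unstimulated KO, 3446 in KO at 100 min and 1089.7 on the array labelled KO 400 min. The 2 sets of arrays did not overlap, and the fitted difference was 2.64 ± 0.16 (SE, log2; limma, adjusted p = 1.21e-05), 6.25-fold.

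Pold2, the small subunit of DNA polymerase delta, read 71 to 182, median 137, on replicates 1 and 2. Its replicate 3 values were 822 in WT at 100 min, 374 in WT at 400 min, 1181 in unstimulated KO, 1166 in KO at 100 min and 307 on the array labelled KO 400 min. All 5 lay above the other 12 (2.30 ± 0.33, adjusted p = 0.00279). Tk1, thymidine kinase of the salvage pathway, also separated fully: 561 to 1198, median 882, on replicates 1 and 2, against 3582, 1480.4, 3757, 3517 and 1611 on replicate 3 in the same order (1.67 ± 0.23, adjusted p = 0.00205). A second, dim Tk1 probe set (mean intensity 69.2) read -0.22, and with both averaged Tk1 was not called (0.73, adjusted p = 0.104).

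Among the helicase genes, Mcm7 read 364 to 800.2, median 729.5, on replicates 1 and 2. On replicate 3 it read 2279, 1098, 2302 and 2193 in WT 100 min, WT 400 min, KO unstimulated and KO 100 min, but 661 on the array labelled KO 400 min, inside the range of the others (1.28 ± 0.17, adjusted p = 0.00178). Mcm4 and Mcm5 were also called, at 0.90 ± 0.16 and 0.75 ± 0.18, while Mcm2, at 678, 346, 953, 1058 and 170.2 against 160.4 to 361, was not. Pola1, the catalytic subunit of DNA polymerase alpha, read 772, 252, 572, 414 and 385 on replicate 3 and 133 to 295, median 163, elsewhere (1.25 ± 0.20, adjusted p = 0.00438). Cdc6, which loads the helicase at origins, read 539, 82.6, 528, 435 and 164 against 45 to 186, median 145 (1.28 ± 0.36, adjusted p = 0.0495). Cdc6 was called in only 3 of the 17 fits that left out 1 array. Chek1, the kinase that guards replication forks, was the remaining S phase gene called (1.05 ± 0.26, adjusted p = 0.0315).

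These values show that the S phase genes were not raised evenly over replicate 3. On the 3 arrays of unstimulated or 100 min cells, 16 of 19 S phase members lay above all 12 arrays of replicates 1 and 2, as did 2 of 5 G1 and 10 of 21 mitosis members, against 5.16% of all probe sets. On the 2 replicate 3 arrays of 400 min, all 19 S phase members lay below the other 3 replicate 3 arrays, as did 12 of 21 mitosis and 2 of 5 G1 members, against 14.4% of all probe sets; 1 of these arrays is the one labelled KO 400 min replicate 3. The WT 400 min array alone lay below the 3 earlier arrays for 19 of 19 S phase, 13 of 21 mitosis and 4 of 5 G1 members, against 26.4% of all probe sets. Within replicate 3, the WT 400 min array was lower than the WT 100 min array for 19 of 19 S phase members, with a median of -1.14 on the log2 scale and a range from -2.70 to -0.29. The array labelled KO 400 min replicate 3 was lower than the unstimulated KO array of replicate 3 for 19 of 19, with a median of -1.48. Over all probe sets these medians were 0.02 and -0.02. The S phase counts of 19 of 19 follow from the count for both 400 min arrays together, so they are not further results. The same step within replicates 1 and 2 had S phase medians of -0.07 in WT (400 against 100 min) and -0.45 in KO (400 min against unstimulated). Each of these groups has 1 array of replicate 3, so a change within replicate 3 has no replicate check. A fit with a separate replicate 3 term for the 400 min arrays, chosen after these values were seen, gave 13 of 19 S phase, 8 of 21 mitosis and 1 of 5 G1 members called higher on the 3 earlier arrays (2.78% of all probe sets). On the 400 min arrays it called 1 of 19 S phase members, Rrm2, and 0 of the mitosis and G1 members (0.172%). The difference between those terms had an S phase median of -1.02 and a mitosis median of -0.07, (-1.05 and -0.30 without the array labelled KO 400 min replicate 3), and it was called for 0 of the 45 members and 0.0101% of probe sets (limma). At an unadjusted p under 0.05 it held 13 members, 11 of them S phase genes, against 10.1% of probe sets, and the lowest adjusted p was 0.142, for Mcm2 (-2.01 ± 0.42).

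**Figure D2:**
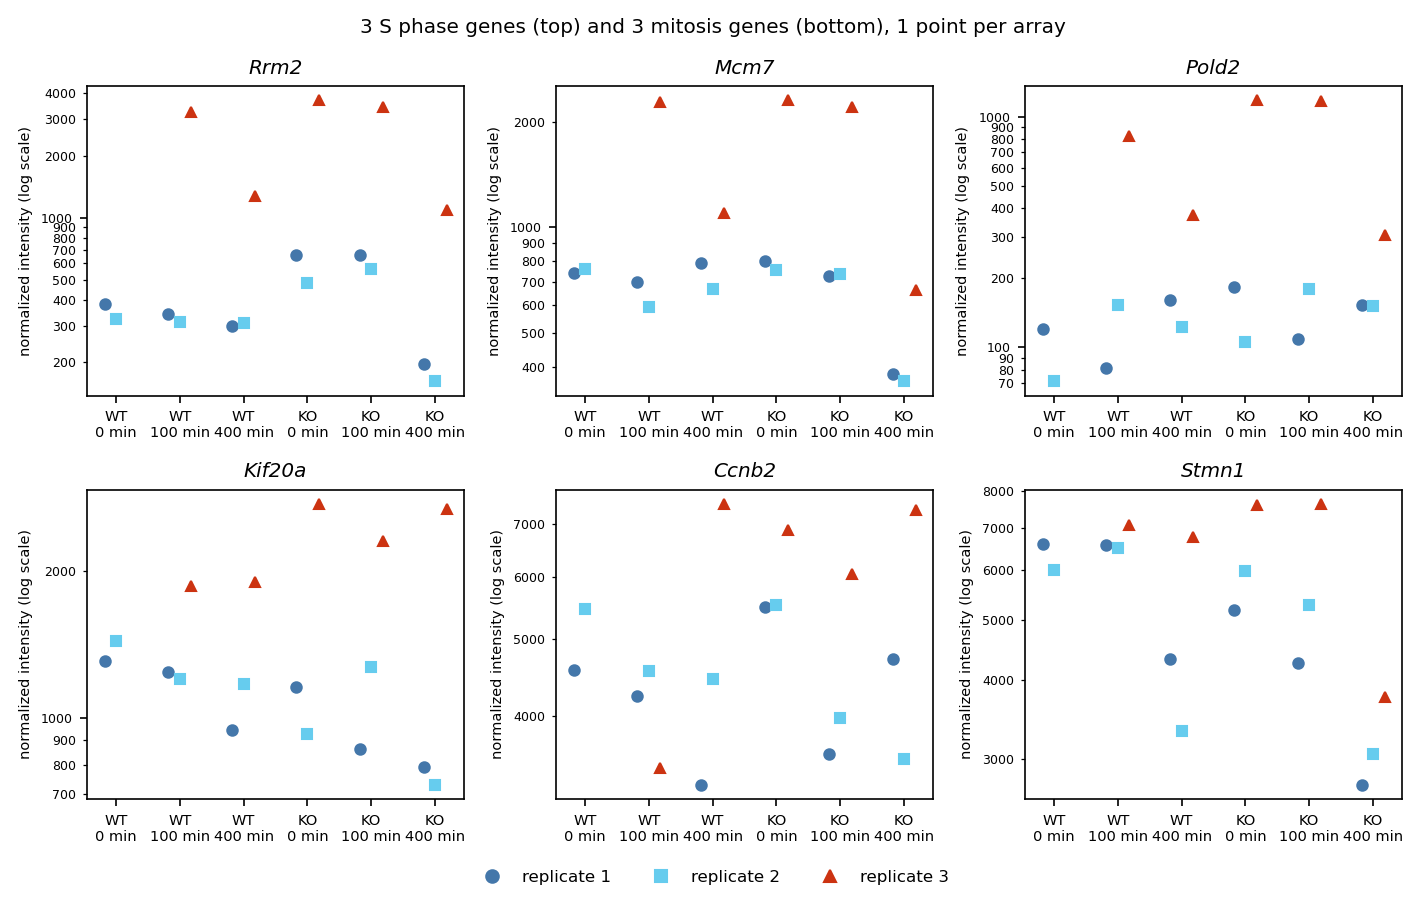
Normalized intensity on a log scale of 3 S phase genes (top) and 3 mitosis genes (bottom) in the 6 groups, 1 point per array, with symbols for the replicate number. Rrm2, Mcm7 and Pold2 are highest on the replicate 3 arrays of WT 100 min, KO unstimulated and KO 100 min, while Kif20a stays high on both replicate 3 arrays of 400 min and Ccnb2 is highest there, at 7421 in WT and 7286 on the array labelled KO 400 min.

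Mitosis genes were also higher on replicate 3, and their fitted differences were spread from genes with all 5 arrays high to genes near 0. Kif20a, a kinesin of cytokinesis, read 729 to 1436, median 1164, on replicates 1 and 2. On replicate 3 it read 1860.3 in WT at 100 min, 1895 in WT at 400 min, 2746 in unstimulated KO, 2299 in KO at 100 min and 2679.8 on the array labelled KO 400 min, all above the rest (1.16 ± 0.17, adjusted p = 0.00362). A second probe set of Kif20a gave 1.08 (adjusted p = 0.00625). Cdk1, the mitotic kinase, read 3863, 3248, 4279, 4458 and 2195 against 1372 to 2188 elsewhere (1.07 ± 0.14, adjusted p = 0.00178). The arrays did not overlap, though the array labelled KO 400 min, at 2195, lay barely above the highest of the others, at 2188.

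Mad2l1, a spindle checkpoint protein, read 2094, 1406, 2199, 2444 and 917 on replicate 3 against 387 to 1037, median 733 (1.24 ± 0.19, adjusted p = 0.00362). Hmgb2, a chromatin protein of dividing cells, read 1079, 791, 1289, 1029 and 483 against 208 to 675, median 414 (1.19 ± 0.25, adjusted p = 0.0156). In both genes only the array labelled KO 400 min fell inside the range of replicates 1 and 2. The others called were Bub1 (0.96), Aurka (0.87), Kif11 (0.80), Cks1b (0.62), Birc5 (0.57), Ccna2 (0.54) and Stmn1 (0.50). Stmn1, a tubulin-binding protein, was called in only 1 of the 17 fits that left out 1 array.

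Ccnb2, a B-type cyclin, and Cdc20, the activator of the anaphase-promoting complex, were not called. At 400 min of replicate 3, Ccnb2 read 7421 in WT and 7286 on the array labelled KO, its highest values, and 3434 in WT at 100 min, near its lowest, with 6870.5 and 6047 in KO unstimulated and at 100 min. It was the single tested member whose 2 replicate 3 arrays of 400 min both lay above the other 3, against 13.7% of probe sets. From 100 to 400 min within replicate 3 of WT, 13 of 21 mitosis members were lower and 8 higher, with a median of -0.12. From unstimulated KO to the array labelled KO 400 min, 17 of 21 were lower, with a median of -0.66.

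Of the G1 genes, Ccne2, the E-type cyclin induced by E2F, was called at 1.09 ± 0.30 (adjusted p = 0.0467) and its partner Cdk2 at 0.85 ± 0.19 (adjusted p = 0.0216). Ccne2 read 113, 111, 143, 128 and 94 on replicate 3 against 21.2 to 135, median 66.6, so the arrays overlapped, and it was called in 3 of the 17 fits that left out 1 array. Cdk2 read 983, 767, 1052, 1302 and 1014 against 361 to 831. Ccnd1, the D-type cyclin that growth factors induce, read 985, 335, 1265, 1752 and 167 against 89.5 to 498, median 339. It was high on the 3 earlier arrays and not on the 400 min arrays, and the replicate 3 difference over all 5 was 1.12 with an adjusted p of 0.158. Cdk4 and Ccne1 differed by 0.17 and 0.07 and were not called.

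Among the cell type markers, 4 of those tested were called on replicate 3, all lower. Over all probe sets, 3.58% were called lower and 3.69% higher. The markers tested were 12 macrophage, 6 precursor, 8 neutrophil, 7 erythroid, 7 B cell, 3 T and NK cell, 8 fibroblast and 3 mast cell genes. Csf1r, the receptor of CSF-1, was lower on replicate 3 (-0.51 ± 0.13, adjusted p = 0.0349), as were the mannose receptor Mrc1 (-2.25 ± 0.28, adjusted p = 0.00111), the precursor protease Prtn3 (-1.61 ± 0.38, adjusted p = 0.028) and the neutrophil gene S100a9 (-1.47 ± 0.37, adjusted p = 0.0335). The summed intensity of the 12 tested macrophage markers ran from 97729 to 108637 on replicate 3 and from 102243 to 132227 on the others. The 6 tested precursor markers summed to 1015 to 1510.4 against 1204 to 1813, and the 8 tested neutrophil markers to 962 to 1281 against 1214 to 2147. The part of these genes in the replicate 3 difference was not tested.

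In KO cells at 400 min of IL-6, 3 of 19 S phase and 3 of 21 mitosis genes were called lower than in unstimulated KO cells, with replicate 3 as a block, and 0 were called higher: Rrm2, Mcm7 and Mcm5 of S phase, and Kif23, Mki67 and Stmn1 of mitosis. These 6 calls of 45 became 1 with no replicate block, 2 within replicates 1 and 2, and 0 when only these groups entered the fit. Over all probe sets 1.36% were called lower and 2.01% higher. Fitted differences were below 0 for 42 of 45 members, with medians of -0.44 for G1, -0.83 for S phase and -0.66 for mitosis genes, against -0.04 over all probe sets, and 22 of 45 had an unadjusted p under 0.05 against 15% of probe sets. Without the array labelled KO 400 min replicate 3, the medians were -0.12, -0.49 and -0.69.

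Rrm2 read 663, 484 and 3711 in unstimulated KO cells (replicates 1, 2 and 3) and 196, 161 and 1089.7 at 400 min. Each replicate fell, by 1.76, 1.59 and 1.77 on the log2 scale, and the fitted difference was -1.71 ± 0.24 (adjusted p = 0.00247), a 3.26-fold drop. With no replicate block, where Kif23 kept its call, the Rrm2 call was lost, as it was with only these groups fitted. Rrm2 was called in all 17 fits that left out 1 array, and in the fit within replicates 1 and 2 (-1.68). It was also the single member called between KO 400 min and KO 100 min (-1.74 ± 0.24, adjusted p = 0.0255; 0.0608% of probe sets called lower), and its 100 min values were 656, 566 and 3446. That difference was -1.73 (adjusted p = 0.0465) without the array labelled KO 400 min replicate 3. The call against 100 min was lost without any 1 of the 3 KO 100 min arrays, WT 100 min replicate 1 or KO 400 min replicate 2.

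Mcm7 read 800.2, 756 and 2302 unstimulated and 381, 364 and 661 at 400 min, with no overlap (-1.31 ± 0.25, adjusted p = 0.0132). Mcm5 read 1991, 2361 and 3331 against 1075, 1105 and 1349.7, also with no overlap (-1.10 ± 0.27, adjusted p = 0.0442). The call for Mcm5 was kept in 4 of the 17 fits that left out 1 array, and a second, dimmer Mcm5 probe set went the other way (1.88, adjusted p = 0.273). Prim1, the catalytic primase subunit, had the lowest fitted value of the 45 members and was not called (165, 132 and 447 against 78.5, 22.5 and 125; -1.82 ± 0.61, adjusted p = 0.155; -2.11 without the array labelled KO 400 min replicate 3). Lig1, the DNA ligase of lagging strand synthesis, read 558, 613 and 932 against 521, 295 and 91.3 (-1.50 ± 0.60, adjusted p = 0.253), and its change within replicates 1, 2 and 3 was -0.10, -1.06 and -3.35, the last from the array labelled KO 400 min replicate 3, without which the fit gave -0.61 (adjusted p = 0.687). Pcna, the sliding clamp, read 6635, 7210.1 and 9402 against 7491, 7917 and 3955. It was higher in replicates 1 and 2 and lower on the array labelled KO 400 min replicate 3 (-0.31 ± 0.29, adjusted p = 0.692); without that array the fitted difference was 0.13 ± 0.21 (adjusted p = 0.891).

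Among mitosis genes, Kif23, a kinesin of the central spindle, read 765, 1191 and 1852 unstimulated and 292, 445 and 507 at 400 min (-1.56 ± 0.29, adjusted p = 0.0102), 2.95-fold lower. Mki67, the proliferation marker, read 2011, 2189.8 and 3126 against 1019, 1116 and 1289 (-1.08 ± 0.22, adjusted p = 0.0188). Stmn1 read 5171, 5984 and 7619.7 against 2727, 3058 and 3764 (-0.97 ± 0.20, adjusted p = 0.0182). In all 3 genes every 400 min array lay below every unstimulated array. Hmgb2 read 485, 291 and 1289 against 241, 208 and 483 and was not called (-0.97 ± 0.37, adjusted p = 0.217). Hmgb2 read -0.94 without the array labelled KO 400 min replicate 3. Ccnb2, Aurka, Cenpa and Birc5 stood at the other end, with fitted differences between -0.26 and 0.07.

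**Figure D3:**
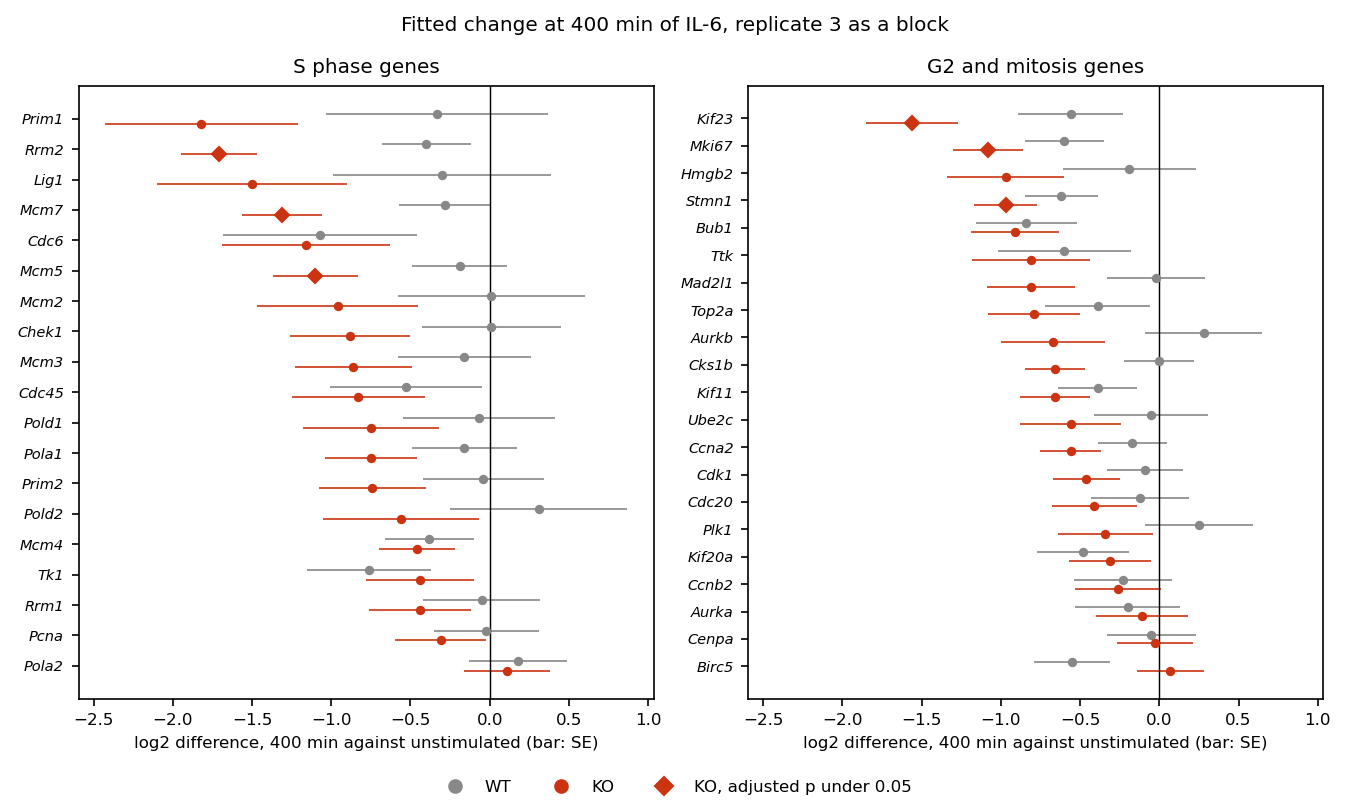
Fitted log2 difference between 400 min of IL-6 and unstimulated cells for each tested S phase gene (left) and mitosis gene (right), in WT (grey) and KO (red), with bars of 1 SE and diamonds at an adjusted p under 0.05. The 6 diamonds, all KO, lie between -0.97 and -1.71, and the WT points of the same genes lie closer to 0, though the difference between genotypes was called for 0 members.

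Counting arrays in place of a fit, 9 members (5 S phase and 4 mitosis genes) had all 3 KO 400 min arrays below all 3 unstimulated KO arrays, against 9.11% of probe sets, and 0 had them above, against 8.56%. Within replicates 1 and 2 alone, 26 members (2 G1, 9 S phase and 15 mitosis) were lower with no overlap, against 24.3% of probe sets, and 1, Pcna, was higher, against 21.3%. The median change within replicate 1 was -0.39 for S phase and -0.68 for mitosis genes, within replicate 2 it was -0.21 and -0.48, and within replicate 3 it was -1.48 and -0.66. Mitosis genes thus had medians of like size in the 3 replicates, whereas the S phase median lay lowest in replicate 3, which rests on the array labelled KO 400 min; over replicates 1 and 2 it was -0.45, and the mitosis median -0.64. Without the array labelled KO 400 min replicate 3, 2 members stayed called, Rrm2 (-1.70, adjusted p = 0.0103) and Kif23 (-1.57, adjusted p = 0.0335). Without KO unstimulated replicate 3 the single call was Rrm2 (-1.68, adjusted p = 0.0124), and 2 were called without KO 400 min replicate 1 or KO unstimulated replicate 2. With the replicate 3 term fitted separately at 400 min, 5 were called, and with no replicate block 1 was. This comparison and that with 100 min share the KO 400 min arrays.

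**Figure D4:**
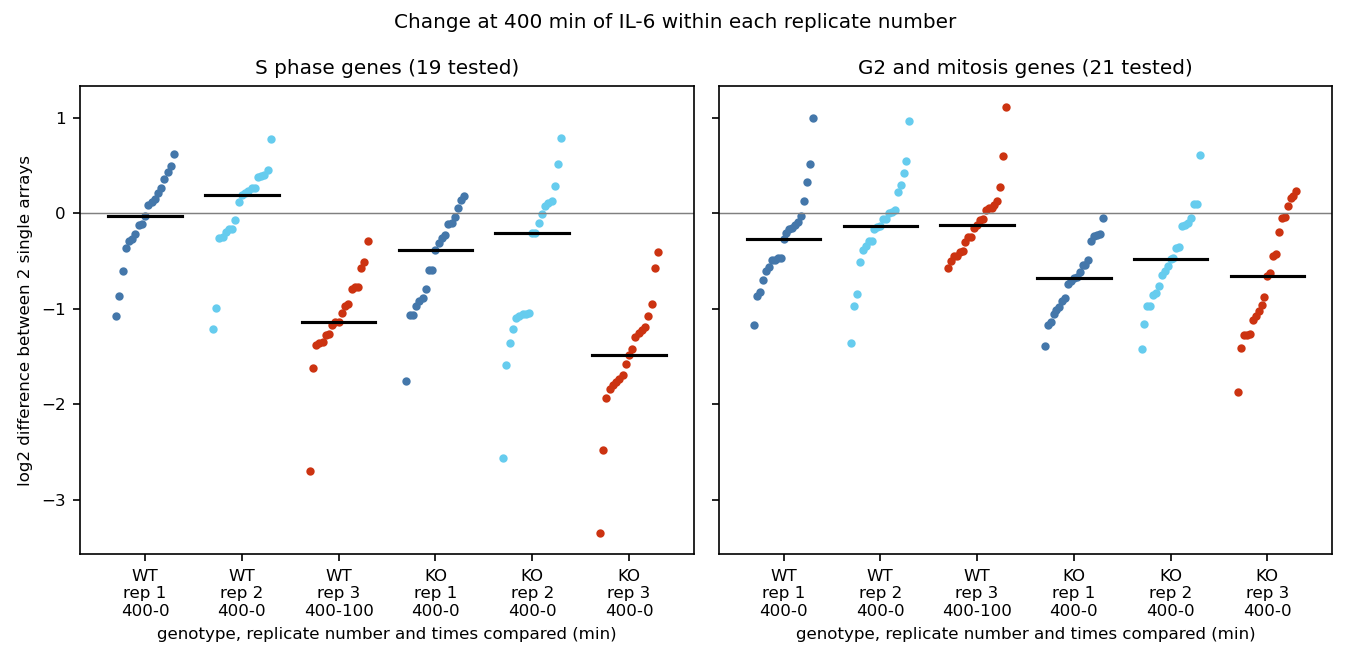
Log2 difference between 2 single arrays of the same replicate number, 1 point per tested gene, for S phase genes (left) and mitosis genes (right), with black lines at the medians. WT replicate 3 compares 400 with 100 min, because it has no unstimulated array, and the others compare 400 min with unstimulated cells. The S phase medians of replicate 3 are -1.14 in WT and -1.48 in KO, the latter from the array labelled KO 400 min, the lowest in the panel, and all KO medians lie below 0.

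In WT cells, 0 of 45 members were called between 400 min and unstimulated (limma; 0.0304% of all probe sets were called), with 4 members at an unadjusted p under 0.05 against 7.73% of probe sets. The medians were -0.33 for G1, -0.16 for S phase and -0.20 for mitosis genes. Within replicates 1 and 2 alone, the S phase median was 0.00 and the mitosis median -0.21. The lowest p belonged to Stmn1, which read 6605 and 6002 unstimulated and 4323, 3327 and 6769 at 400 min (-0.62 ± 0.23, adjusted p = 0.519). Rrm2 read 383 and 324 unstimulated and 298, 309 and 1272 at 400 min (-0.40 fitted). Between 400 and 100 min in WT, 0 members were called (0.0709% of probe sets) and 7 had an unadjusted p under 0.05 against 8.31%, with medians of -0.39 for S phase and -0.21 for mitosis genes. The S phase median of this step was -0.07 within replicates 1 and 2 and -1.14 within replicate 3, which is 1 pair of arrays. The fit uses 1 replicate 3 term for all times.

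The test of the genotypes' responses against each other called 0 of 45 members at 400 min (0.0507% of probe sets), with 5 at an unadjusted p under 0.05 against 6.49%. The medians of KO minus WT were -0.12 for G1, -0.70 for S phase and -0.37 for mitosis genes, against -0.04 over all probe sets; without the array labelled KO 400 min replicate 3 they were 0.24, -0.23 and -0.39. Rrm2 came first, at -1.30 ± 0.37 (adjusted p = 0.438), then Mcm7 at -1.03 ± 0.38 (adjusted p = 0.666), or -1.29 and -0.80 without that array. A difference in drop between the genotypes was therefore not shown for any member at this threshold. Between KO and WT at 400 min, 0 members were called (0.861% of probe sets) and 8 had an unadjusted p under 0.05 against 11.3%. Kif23 had the lowest p, at 292, 445 and 507 in KO against 922, 698 and 965 in WT (-1.08 ± 0.29, adjusted p = 0.137). Mcm7 followed (-0.88 ± 0.25, adjusted p = 0.172). They read -1.09 and -0.70 without the array labelled KO 400 min replicate 3.

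Unstimulated cells and 100 min of IL-6 gave 0 member calls. Between unstimulated KO and WT cells 0 of 45 members and 0% of probe sets were called (limma), with 2 members at an unadjusted p under 0.05 against 6.25%. Those were Rrm2 (663, 484 and 3711 against 383 and 324; 0.71 ± 0.28, adjusted p = 0.759) and Pola1 (0.74 ± 0.33, adjusted p = 0.788). At 100 min, 0 members were called against unstimulated cells in WT (0.0304% of probe sets; 1 member, Pola1, at an unadjusted p under 0.05, against 6.7%) and 0 in KO (0.952% of probe sets; 0 members at an unadjusted p under 0.05, against 7.63%). S phase medians were 0.25 in WT and -0.05 in KO, and mitosis medians -0.07 and -0.14. KO against WT at 100 min called 0 members (0.162% of probe sets; 1 at an unadjusted p under 0.05, against 6.35%), and so did the difference of the 100 min responses (0% of probe sets; 1 at an unadjusted p under 0.05, against 4.35%).

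Further genes of the pathway, from lists that are not part of the 50 members, were read in the same fits. Of 38 tested further replication genes, 1 was called lower in KO at 400 min against unstimulated, Rpa1 of the single-strand binding protein (-1.24 ± 0.29, adjusted p = 0.0365), and 0 higher, with a median of -0.62. Of 35 tested further mitosis genes, 6 were called lower and 0 higher, with a median of -0.65: Anln (-1.23), Cks2 (-1.21), Plk4 (-1.16), Nusap1 (-1.06), Prc1 (-1.06) and Kif22 (-0.79). Anln, which organises the cleavage furrow, read 1254, 1007 and 2615 unstimulated and 478, 508 and 1045 at 400 min. Anln was called in all 17 fits that left out 1 array, Plk4 in 15, Cks2 in 14 and Nusap1 in 11. Rpa1 was called in 8, Prc1 in 5 and Kif22 in 1. Without the array labelled KO 400 min replicate 3, Rpa1, Plk4, Nusap1 and Kif22 were not called. All of these genes, Anln included, lost their calls with no replicate block and with only the groups compared in the fit. Within replicates 1 and 2, all but Rpa1 lost them. On replicate 3 against the others, 9 of 38 replication genes and 16 of 35 mitosis genes were called higher and 0 lower, led by Uhrf1 (1.99 ± 0.34, adjusted p = 0.00659) and Rfc4 (1.89 ± 0.29, adjusted p = 0.00413) among replication genes and by Nusap1 (1.22 ± 0.16, adjusted p = 0.00178) and Plk4 (1.20 ± 0.16, adjusted p = 0.00162) among mitosis genes. Uhrf1, which brings DNA methylation to replicated DNA, read 2631, 2639 and 2298 on the 3 earlier replicate 3 arrays and 573 and 476 on the 400 min ones, against 103 to 541 elsewhere.

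Cell cycle inhibitors did not move as 1 group. Of 17 tested, 1 rose and 1 fell in KO at 400 min. Cdkn2d, an inhibitor of the cyclin D kinases, read 989, 1048 and 1846 in unstimulated KO cells, 3878, 4545 and 4992 at 100 min and 4356, 4041 and 4911 at 400 min. It rose by 1.84 ± 0.19 at 100 min (adjusted p = 4e-04) and 1.83 ± 0.19 at 400 min (adjusted p = 0.000271), 3.58-fold and 3.56-fold, with no overlap of arrays. In WT it read 834 and 937 unstimulated, 1638, 1494 and 1901 at 100 min and 1789.6, 1434 and 2197 at 400 min. That rise of 0.78 at 100 min and 0.87 at 400 min was not called (adjusted p = 0.398 and 0.24). KO exceeded WT at 100 min by 1.41 ± 0.19 (adjusted p = 0.00999) and at 400 min by 1.31 ± 0.19 (adjusted p = 0.00794). Without the array labelled KO 400 min replicate 3, the difference from WT at 400 min was 1.39 (adjusted p = 0.0131). At both times the call against WT was lost with no replicate block and with only the groups compared in the fit. The calls for the rise in KO were lost in the latter fit as well. The call for KO against WT at 100 min was also lost without KO 100 min replicate 1 or 2. The difference of the responses was not called (0.96 ± 0.29 at 400 min, limma, adjusted p = 0.486).

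Ccng2, a cyclin that is high in cells leaving the cycle, fell in KO at both times (-1.61 ± 0.30, limma, adjusted p = 0.0215, and -1.31 ± 0.30, adjusted p = 0.0316), from 758, 530.2 and 1456 to 156, 217 and 613 and to 259, 209 and 708. Both Ccng2 calls were lost with no replicate block and with only the groups compared in the fit. The 100 min call was kept in 12 of the 17 fits that left out 1 array. The 400 min call was also lost with the replicate 3 term fitted separately at 400 min. E2f1, an activating E2F factor, fell at 400 min from 108, 181 and 198 to 23.8, 20.1 and 86.6 (-2.14 ± 0.40, adjusted p = 0.011). The lowest of these lay below the floor of 22.01 set on all values, so the fold change understates the difference, and the call was lost with all E2f1 probe sets averaged and with no replicate block. Mxd1, a repressor that competes with Myc for its partner Max, rose at 400 min from 30.6, 41.7 and 38.1 to 187, 215 and 123 (2.22 ± 0.44, adjusted p = 0.0138) and was higher in KO than in WT, where it read 14.4, 40.2 and 50.2 (2.27 ± 0.44, adjusted p = 0.0334). That difference between genotypes was called in 11 of the 17 fits that left out 1 array, and it was lost without any 1 of the 3 WT 400 min arrays, KO 400 min replicate 1 or 2 or KO unstimulated replicate 1. It was also lost with no replicate block (adjusted p = 0.074), with a full replicate block (adjusted p = 0.0505), with only these groups fitted (adjusted p = 0.255) and with an intensity trend (adjusted p = 0.11). Of 10 tested G1 regulators, E2f1 and Mxd1 were the ones called. With 1 array left out, E2f1 was called in 14 of 17 fits, Mxd1 in 13 and Ccng2 in 12 at 400 min, and all 3 were lost without KO 400 min replicate 1. Without the array labelled KO 400 min replicate 3, E2f1 (-2.55), Mxd1 (2.76), Ccng2 (-1.50) and Cdkn2d (1.91) stayed called. In the same comparison the macrophage markers Mrc1 (3.25 ± 0.41, adjusted p = 0.000997) and Fcgr1 (1.96 ± 0.28, adjusted p = 0.00247) rose and the precursor marker Cd34 fell (-2.43 ± 0.58, adjusted p = 0.0386). Macrophage markers did not move as 1 group. Cd14 read 18700, 18110.3 and 23184 in unstimulated KO cells and 7784, 7265 and 13057 at 400 min. Csf1r read 25379.8, 22295 and 14177 against 14477, 14477 and 13433. Without the array labelled KO 400 min replicate 3, Mrc1 (3.04, adjusted p = 0.00719) and Fcgr1 (1.71, adjusted p = 0.0113) stayed called and Cd34 did not (-1.96, adjusted p = 0.159). The summed macrophage markers ran from 108637 to 127328 in unstimulated KO and from 102243 to 107892 at 400 min, and the summed precursor markers from 1051 to 1408 and from 1489.7 to 1813. Their part in the lower levels of the members was not tested.

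**Figure D5:**
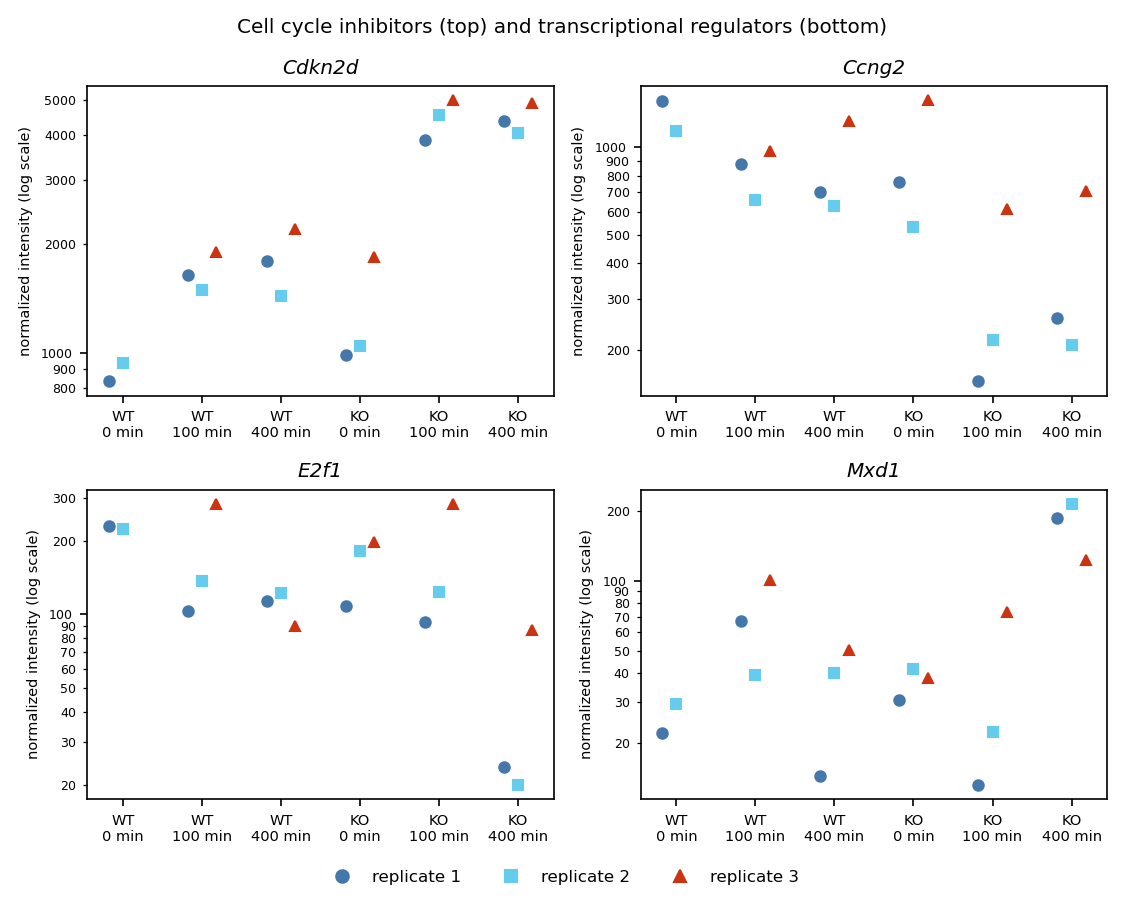
Normalized intensity on a log scale of 2 cell cycle inhibitors (top) and 2 transcriptional regulators (bottom), 1 point per array, with symbols for the replicate number. Cdkn2d lies between 3878 and 4992 on all 6 KO arrays with IL-6 and at most at 2197 on the others. E2f1 is lowest, at 23.8 and 20.1, on KO 400 min replicates 1 and 2.

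Several members had more than 1 probe set. Of 13 further tested probe sets in 12 genes, 9 had the sign of the chosen one on replicate 3 and 4 had the other sign; in KO at 400 min it was 8 and 5. Kif20a's second set read -0.95 (adjusted p = 0.088) in KO at 400 min where the chosen one, which was brightest, read -0.31. Second sets of Mki67 and Stmn1, at mean intensities of 134 and 61.5, read 0.05 and 0.00 there. With the probe sets of each gene averaged, replicate 3 had 17 members called, without Tk1, Mcm5, Cdk2, Ccne2 (then too dim to test), Bub1 and Stmn1 and with Pold1, and 3 members stayed called in KO at 400 min, Rrm2, Mcm7 and Kif23.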

How the data were processed

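RNA of 17 macrophage samples was hybridised to 1-colour arrays. The deposited values are intensities per probe set in 1 table made by the authors; they are linear, with a trimmed mean (2% at each end) of 499.9 to 500.1 on all arrays, and the software that made them is not given in the sources used here. Array medians ran from 164.25 to 216.95, so values were quantile normalized, floored at the 10th percentile (22.01) and put on the log2 scale. Probe sets above the 40th percentile of their array on at least 2 arrays were tested, 9871 of 12488, without 66 array controls; 10855 had 1 gene symbol, 396 several and 1237 none here. limma 3.58.1 in R 4.3.3 fitted group means and a replicate 3 term to all 17 arrays (residual df 10, prior df 2.3). P-values were adjusted over all probe sets tested by Benjamini-Hochberg and called under 0.05, two-sided, in 12 comparisons; 1 more was chosen after values were seen. A SE is the fit's. Same-numbered arrays deviated together for replicate 3 (median correlation of deviations 0.137, lowest 0.1) and less for replicates 1 and 2 (0.0403 and 0.0419), so replicate 3 alone was the block. The members and lists were chosen with earlier results of these data known. Genes are named where called or by size of difference within their role. The fit was run on simulated data with independent noise and planted shifts larger than most member differences, in probe sets of low spread. That run does not show how well differences of the size reported here are recovered. The 10 alternatives listed at the outset covered the block, normalization, floor, filter, probe sets, samples and variance model. The number of arrays limits the precision.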

Additional observations from a re-analysis of the deposited data

Results flagged for a closer look

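In 4 cases the responses of the genotypes lay on opposite sides of 0 within every replicate that could be compared: each WT pair of replicates 1 and 2 moved up and each KO pair of replicates 1 to 3 moved down. Differences are KO minus WT in mean log2 response to IL-6. Pold1, the catalytic subunit of DNA polymerase delta, differed by -1.0 at 100 min (0.22 in WT, -0.78 in KO). At 400 min Mcm2 differed by -1.22 (0.25 and -0.96), Chek1 by -1.09 (0.20 and -0.88) and Aurkb, the kinase of the chromosomal passenger complex, by -1.08 (0.41 and -0.67). Such opposite moves held for 1 of 45 members at 100 min and 3 of 45 at 400 min, against 4.92% and 5.89% of all probe sets. By this count the members did not stand out from all probe sets. The KO changes of Mcm2 in replicates 1, 2 and 3 were -0.31, -0.10 and -2.48, the last from the array labelled KO 400 min replicate 3, which goes against its label in Socs3. Without that array the difference was -0.46 for Mcm2, -0.94 for Chek1 and -1.10 for Aurkb. The difference was not tested by this count; limma's test of the response difference called 0 of 45 members at either time.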

How the results depend on the processing

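Counts of members called depended on the block and on single arrays. For KO 400 min against unstimulated (6 called), the count was 1 with no replicate block, 5 with a full replicate block, 2 within replicates 1 and 2, 3 with probe sets averaged per gene, 0 with only the groups compared, and 1 to 6 with 1 array left out. Averaging turned Mcm5 to 0.39 (adjusted p = 0.728), since its second probe set goes the other way. For KO 400 min against 100 min (1 called), it was 0 with no replicate block or only the groups compared, 6 with an intensity trend, and 0 to 1 with 1 array left out. For KO against WT at 400 min (0 called), it was 1 with an intensity trend (Kif23) and 1 with the replicate 3 term separate at 400 min (Mcm7, chosen after seeing the data). The 400 min difference of the replicate 3 term (0 called) gave 3 with an intensity trend. Replicate 3 against the others (22 called) gave 13 to 21 with 1 array left out. Where a cause is not given, the cause was not tested. The full replicate block kept the other counts within the same 1.5-fold limit. Of 1023 recomputed role medians, 959 moved by less than the spread between replicates and 64 by more.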
